A study of Mus musculus with 16 samples.

Results

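The genes described here are 9 macrophage genes of the mouse, namely *Msr1*, *Cd163*, *Mrc1*, *Lyve1*, *F13a1*, *Ms4a7*, *Lyz2*, *Lyz1* and *Arg1*. They were chosen by name, out of 20134 genes with a value on all arrays, as genes that mark macrophages of the brain borders and macrophages that enter injured tissue. Each gene was represented by the probe with the highest mean signal among those carrying its RefSeq accession. A gene is called measured in an RNA pool when its probe passed the background test of the scanner software with both dyes. Of the 9 genes, 8 were measured in at least 1 pool, 5 in all 8 pools, and *Cd163* in none.

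Macrophages of the brain borders live in the meninges, along blood vessels and in the choroid plexus, whereas the microglia live in the brain tissue itself. Monocytes of the blood enter injured brain tissue and turn into macrophages there. Border macrophages are known for the mannose receptor *Mrc1*, the scavenger receptor *Cd163* and the hyaluronan receptor *Lyve1*. *Ms4a7*, *F13a1*, *Lyz2* and *Msr1* are found in border macrophages or in macrophages from monocytes, and are low in resting microglia. *Arg1* is an enzyme of macrophages in wound repair.

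The samples were right neocortex, rostral from bregma, of C57BL/6J mice, the side opposite to a left hemisuction, in which an area of cortex that includes the sensorimotor cortex was aspirated. The aspirated area was larger in adults than in neonates. NBH mice had the surgery as neonates at P7 and were sampled 1 week (P14) or 4 weeks (P35) later. ABH mice had it as adults and were sampled 1 week later, at 11 weeks of age, or 4 weeks later, at 15 weeks of age by the sample labels and 14 weeks by the sampling scheme of the study. Unoperated control mice were taken at P7, P14 and P35 and at 10 weeks, and no sham surgery is named for them. Each of the 8 groups was 4 male animals whose RNA was pooled. Every group is therefore 1 pool without a biological replicate, which gives no test between conditions and no p-value. Each pool was labeled once with Cy3 (chip 1) and once with Cy5 (chip 2) and hybridized alone, so that the SD between the dyes, given after ±, is a technical error over 2 arrays of the same RNA.

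The median spot intensity lay between 192.5 and 253 on the 16 arrays, and 60.2% to 72.2% of the gene spots passed the background test. On either chip the controls filled row 1 and the operated pools row 2, so that position and surgery cannot be told apart. *Xist*, a transcript of the inactive X chromosome, was measured in control P35 and in no other pool, although all pools are given as male. All 8 markers of neocortical neurons were measured in all 8 pools. The levels below are log2 intensities of the labeled channel minus the 75th percentile of the array, and levels of different genes are not compared, since each probe has its own brightness. The tissue is a mixture of cells, in which fewer cells of a type and less RNA per cell cannot be told apart.

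The promoters of the 4 genes with the largest changes below (*Lyz1*, *Lyz2*, *Ms4a7* and *F13a1*) are shown first, as the 250 bases before the transcription start in RefSeq for build GRCm38.p6. For *Ms4a7* and *F13a1*, which have 2 starts in that table, the outermost start was taken. Capitals mark matches, on either strand, to the C/EBP motif TTNCNNAA or to the PU box GAGGAA, letters that transcription factors of myeloid cells can bind. The AP-1 motif TGANTCA was searched as well, and no matches of different motifs overlapped, whereas the 2 C/EBP matches of *Mrc1* and those of *Cd163* overlapped each other.
Lyz1, chr10:117292869-117293118, minus strand: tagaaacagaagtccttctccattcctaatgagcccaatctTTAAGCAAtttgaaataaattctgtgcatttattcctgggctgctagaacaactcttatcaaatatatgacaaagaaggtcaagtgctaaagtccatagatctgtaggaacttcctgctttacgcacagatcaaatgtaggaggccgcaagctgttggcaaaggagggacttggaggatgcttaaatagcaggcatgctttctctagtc
Lyz2, chr10:117282273-117282522, minus strand: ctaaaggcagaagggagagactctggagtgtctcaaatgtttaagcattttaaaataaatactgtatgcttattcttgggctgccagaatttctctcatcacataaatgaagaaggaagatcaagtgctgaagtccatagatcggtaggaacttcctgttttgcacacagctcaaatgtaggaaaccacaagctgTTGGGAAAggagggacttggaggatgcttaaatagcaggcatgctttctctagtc
Ms4a7, chr19:11336147-11336396, minus strand: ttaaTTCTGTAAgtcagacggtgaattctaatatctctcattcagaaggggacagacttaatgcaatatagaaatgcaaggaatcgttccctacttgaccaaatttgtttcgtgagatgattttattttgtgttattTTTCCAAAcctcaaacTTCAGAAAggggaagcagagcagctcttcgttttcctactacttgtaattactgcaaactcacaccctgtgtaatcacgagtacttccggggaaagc
F13a1, chr13:37050245-37050494, minus strand: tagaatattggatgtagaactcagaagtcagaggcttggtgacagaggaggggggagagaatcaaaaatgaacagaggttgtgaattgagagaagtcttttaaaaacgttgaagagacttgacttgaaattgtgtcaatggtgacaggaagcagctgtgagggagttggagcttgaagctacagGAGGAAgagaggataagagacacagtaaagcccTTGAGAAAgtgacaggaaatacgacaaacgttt

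*Lyz1* and *Lyz2* are neighboring lysozyme genes on chromosome 10, and their 250-base promoters were identical at 200 of 252 aligned positions (79.4%). The other pairs among the 6 genes with an entry (these 4, *Mrc1* and *Cd163*) were identical at 41.1% to 49.3% of aligned positions. The C/EBP motif was found in 6 of the 6 promoters and in 37.0% of the outermost promoters of 27025 genes. The single matches in *Lyz1* (209 to 202 bases before the start) and *Lyz2* (55 to 48 bases before the start) lay at different places. The PU box was found in *Mrc1* and *F13a1*, that is 2 of 6 promoters, and in 23.1% of all. The AP-1 motif was found in 0 of 6 and in 6.85% of all. A match describes the letters and not the binding of a factor.

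In the unoperated controls, the levels of *Mrc1* and *Lyve1* were lower at P14 than at P7 and lower again at P35, while the levels of *Ms4a7* and *F13a1* differed little between the ages. The mannose receptor *Mrc1* (NM_008625, chromosome 2) was at −0.06 ± 0.04 at P7, −1.12 ± 0.10 at P14, −1.56 ± 0.01 at P35 and −1.59 ± 0.14 at 10 weeks. The steps from P7 to P14 (−1.06 ± 0.15, 2.09-fold) and from P14 to P35 (−0.44 ± 0.09, 1.36-fold) were larger than the spread between the dyes, and the step from P35 to 10 weeks was not. *Mrc1* was 2.89-fold lower at 10 weeks than at P7.

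*Lyve1* (NM_053247, chromosome 7) was at −2.61 ± 0.03 at P7, −2.80 ± 0.12 at P14, −3.28 ± 0.01 at P35 and −3.22 ± 0.19 at 10 weeks. Both dyes gave a lower level at P14 than at P7 (−0.19 ± 0.15) and at P35 than at P14 (−0.48 ± 0.11, 1.39-fold), and the level at 10 weeks was 1.53-fold below that at P7. P35 and 10 weeks did not differ beyond the dye spread. *Mrc1* and *Lyve1*, both receptors of resident border macrophages, thus had their highest control level at P7.

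*Ms4a7* (NM_001025610, chromosome 19), a membrane protein of macrophages, was at −2.46 ± 0.24 at P7, −2.21 ± 0.05 at P14, −2.34 ± 0.07 at P35 and −2.36 ± 0.14 at 10 weeks. *F13a1* (NM_028784, chromosome 13), the catalytic subunit of the clotting factor that cross-links fibrin, was at −1.53 ± 0.04, −1.23 ± 0.04, −1.48 ± 0.11 and −1.42 ± 0.01 at the same ages. Both were highest at P14, by 0.26 ± 0.19 and 0.30 ± 0.08 over P7, and neither differed between P35 and 10 weeks beyond the dye spread.

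*Lyz1* (NM_013590, chromosome 10), the lysozyme first known from Paneth cells of the gut, was at −0.84 ± 0.16 at P7, −1.39 ± 0.01 at P14, −0.68 ± 0.19 at P35 and −0.64 ± 0.17 at 10 weeks. It was lowest at P14, and the difference between P35 and P14 was 0.71 ± 0.20 (1.64-fold). *Lyz2* (NM_017372, chromosome 10), the lysozyme of myeloid cells, was at −2.58 ± 0.51, −2.75 ± 0.64, −2.86 ± 0.13 and −2.68 ± 0.14, with 1 of 2 arrays passing the background test at P14. No step of *Lyz2* between control ages was larger than the dye spread. *Msr1* (NM_031195, chromosome 8), a scavenger receptor for modified lipoproteins, did not pass the background test on any control array. *Arg1* (NM_007482, chromosome 10) passed it on 1 of 2 arrays at P7 and at P14 and on none at P35 and 10 weeks.

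**Figure D1:**
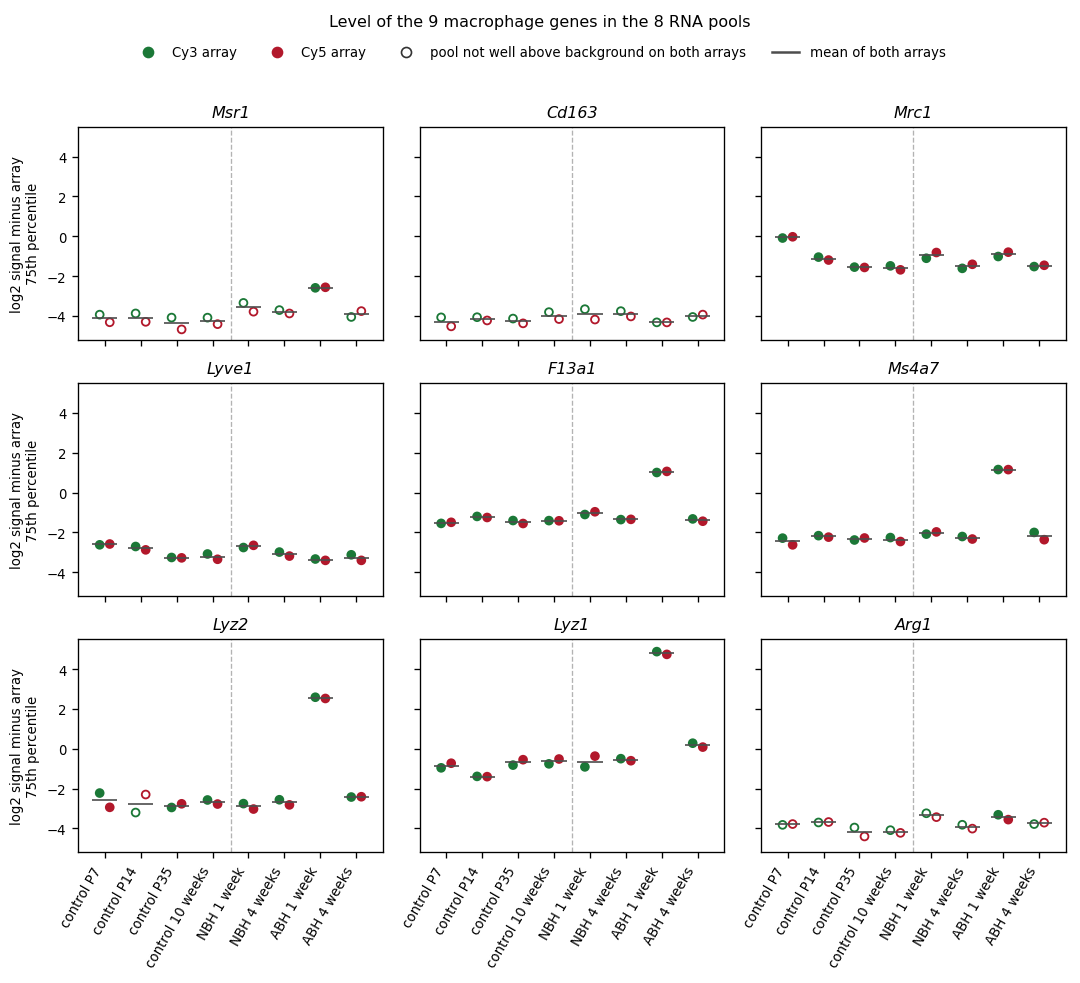
Levels of the 9 macrophage genes in the 8 RNA pools, as log2 signal minus the 75th percentile of the array (vertical axis), with 1 point per array (green Cy3, red Cy5), a line at their mean, and open points where the gene was not measured in the pool. *Lyz1*, *Lyz2*, *Ms4a7* and *F13a1* stand highest in ABH 1 week, *Mrc1* and *Lyve1* stand highest in control P7, and *Cd163* has open points only.

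The NBH and ABH pools were then set against unoperated controls, always between arrays of the same dye, to see which genes changed in the cortex on the unlesioned side. A gene was called higher at 1.5-fold or more with both dyes and lower at 0.75-fold or less with both dyes, and was compared where it was measured in either pool. An array that failed the background test was held at the lowest passing signal of that array, unless its own signal was higher, and the change is then a bound, written as "at least". Each NBH pool was set against the control of equal age, and both ABH pools share the 10 weeks control.

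At 1 week after adult hemisuction, 5 of the 8 compared macrophage genes were called higher and 0 lower. Over all 16320 genes compared, 4.44% were called higher and 6.37% lower. The 5 genes were both lysozymes, *Ms4a7*, *F13a1* and *Msr1*. The median log2 fold change of the 8 genes was 1.89, against −0.08 over all genes compared. *Msr1* and *Arg1* entered the comparison only through the ABH 1 week pool. Of the 6 genes measured in both pools, 4 were called higher, and the median of all 9 at their own signals was 1.68. With median scaling the calls over all genes changed from 725 higher and 1039 lower to 1266 and 313, and the median of all genes to 0.18. *Mrc1*, *Arg1* and *Lyve1* were not called, and *Cd163* was not compared.

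The lysozymes had the largest changes. *Lyz1* was at 4.88 with Cy3 and 4.75 with Cy5 in ABH 1 week, against −0.76 and −0.51 in the 10 weeks control, which is a log2 fold change of 5.45 ± 0.27 (43.7-fold). *Lyz2* was at 2.59 and 2.53 against −2.57 and −2.78, which is 5.24 ± 0.10 (37.7-fold). In both genes the ABH 1 week pool stood above every one of the other 7 pools with both dyes. Ordered by their change among the 16320 genes, with bounded changes placed at their bound, *Lyz1* was number 4 and *Lyz2* number 5. The sequences of the array probes were not used here, and for these closely related genes the signal of one transcript at the probe of the other cannot be told apart from its own.

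*Ms4a7* was at 1.15 with Cy3 and 1.15 with Cy5 in ABH 1 week, against −2.27 and −2.46 in the control, a log2 fold change of 3.52 ± 0.14 (11.4-fold), number 14 in order. *F13a1* was at 1.01 and 1.06 against −1.41 and −1.42, a change of 2.45 ± 0.05 (5.47-fold), number 40 in order. For both genes the other 7 pools lay below the ABH 1 week pool on all arrays. A second, dimmer *F13a1* probe passed the background test only on 1 array of the 10 weeks control, so it gives no change, and the mean over both probes was 0.97.

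*Msr1* was measured in ABH 1 week alone, at −2.59 with Cy3 and −2.57 with Cy5. Since the control arrays failed the background test, its change is a bound, namely at least 2.52-fold (log2 bound 1.33 ± 0.40). At that bound it was number 248 in the order of changes. A second *Msr1* probe was also measured in ABH 1 week only, at −3.28 and −3.38, with a log2 bound of 0.55, which was not called.

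*Mrc1* was at −1.02 and −0.80 in ABH 1 week against −1.49 and −1.69 in the control. Its log2 fold change of 0.47 with Cy3 and 0.89 with Cy5 (0.68 ± 0.30, 1.60-fold) passed the limit with Cy5 only. With the other scalings and the processed signal it was called, at 0.80 with quantile normalization, 0.83 with the processed signal, 0.93 with the unscaled value table and 0.94 with median scaling. The ABH 1 week level of *Mrc1* (−0.91 ± 0.15) lay between control P7 and control P14.

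*Arg1*, which splits arginine into ornithine and urea, was measured in ABH 1 week alone, at −3.32 and −3.56. That was not its highest level, since it stood at −3.24 and −3.44 in NBH 1 week, where both arrays failed the background test. The change of *Arg1* in ABH 1 week was at least 1.39-fold (log2 bound 0.32 with Cy3 and 0.62 with Cy5) and was not called. Without the bound, at its own signals, it was 0.72 and called, and with the processed signal the bound was 1.34 and called. Over the 12 alternatives that compared *Arg1*, it stayed uncalled in 4 and was called higher in the others.

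*Lyve1* was at −3.34 and −3.41 against −3.09 and −3.36, a difference of −0.15 ± 0.14 that was not called. The sign of this small difference turned with the scaling, to 0.06 with the unscaled value table, 0.10 with median scaling and 0.14 with quantile normalization. *Cd163*, the hemoglobin scavenger receptor, passed the background test on none of the 16 arrays, with levels between −4.53 and −3.67.

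In the order of levels over the 8 pools, the step from ABH 1 week down to the next pool was 4.98 ± 0.06 for *Lyz2*, 4.63 ± 0.04 for *Lyz1*, 3.19 ± 0.08 for *Ms4a7* and 2.07 ± 0.06 for *F13a1*, far beyond the dye spread. The next pool was ABH 4 weeks for the lysozymes and NBH 1 week for *Ms4a7* and *F13a1*. Among the other 7 pools, 0 of 6 neighboring steps of *Lyz2*, 1 of 6 of *Ms4a7*, 2 of 6 of *F13a1* and 3 of 6 of *Lyz1* were larger than the dye spread with both dyes in the same direction. *Mrc1* went from control P7 through ABH 1 week, NBH 1 week and control P14 to the 4 remaining pools, which lay between −1.59 and −1.49 and did not differ from their neighbors. *Lyve1* had its lowest level, −3.38 ± 0.05, in ABH 1 week, 0.10 ± 0.03 below control P35.

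**Figure D2:**
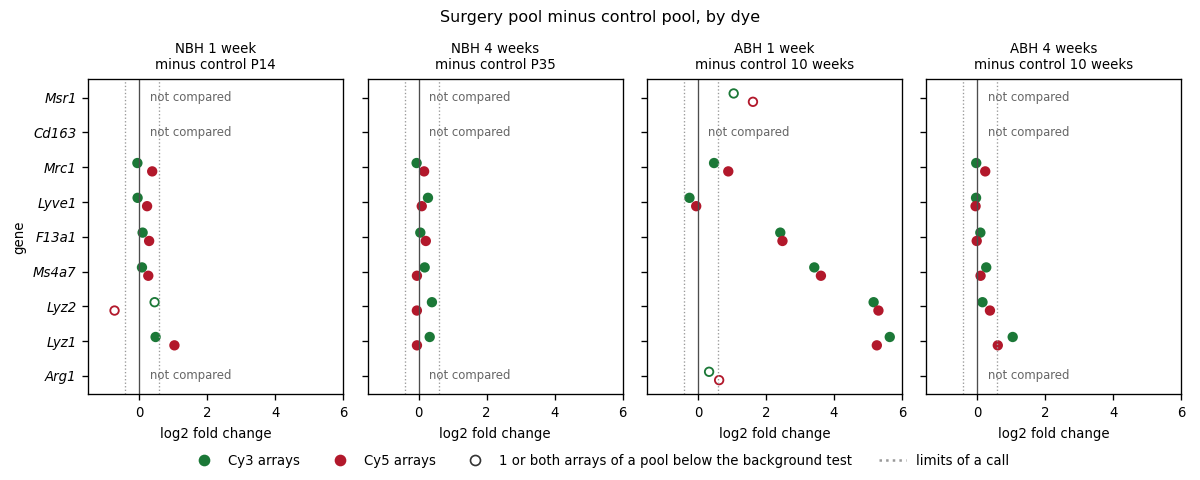
Log2 fold change of each macrophage gene (rows) in the 4 comparisons of a surgery pool with its control (panels), with 1 point per dye, open points where an array of either pool failed the background test, and dotted lines at the limits of a call. In ABH 1 week the 4 genes from *F13a1* to *Lyz1* lie between 2.42 and 5.64 with both dyes, while in the other 3 panels all points lie between −0.73 and 1.04.

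At 4 weeks after adult hemisuction, 1 of the 6 compared macrophage genes was called higher and 0 lower, where 0.43% of all 16294 genes compared were called higher and 0.196% lower. *Lyz1* was at 0.28 with Cy3 and 0.08 with Cy5, a log2 fold change of 1.04 and 0.60 (0.82 ± 0.31, 1.76-fold), number 45 in order. Its Cy5 value lay just inside the limit, and it was no longer called with median scaling (0.78), with the unscaled value table (0.80) or with 2-fold limits. *Lyz2* was 0.26 ± 0.16, *Ms4a7* 0.18 ± 0.12, *Mrc1* 0.10 ± 0.19, *F13a1* 0.03 ± 0.08 and *Lyve1* −0.05 ± 0.01, none of them called. *Msr1*, *Arg1* and *Cd163* were not measured in this pool. *Lyz1* was 4.63 ± 0.04 lower in ABH 4 weeks than in ABH 1 week on the log2 scale, and *Ms4a7* and *F13a1* lay within 0.18 of the control.

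At 1 week after neonatal hemisuction, 0 of the 6 compared macrophage genes were called in either direction, where 0.472% of 15469 genes were called higher and 0.427% lower. The largest value was that of *Lyz1*, which was at −0.91 with Cy3 and −0.37 with Cy5 in NBH 1 week against −1.39 and −1.40 in control P14. Its log2 fold change of 0.48 and 1.03 (0.76 ± 0.39) passed the limit with Cy5 only, and with the processed signal it was called (0.89). The NBH 1 week level of *Lyz1*, −0.64 ± 0.38, was next to those of the P35 and 10 weeks controls, while control P14 had the lowest *Lyz1* level of all pools. *F13a1* was 0.19 ± 0.14, *Ms4a7* 0.17 ± 0.13, *Mrc1* 0.16 ± 0.31 and *Lyve1* 0.09 ± 0.20. *Lyz2* went in opposite directions with the dyes, at 0.45 with Cy3 (where the control array failed the background test) and −0.73 with Cy5. *Msr1*, *Arg1* and *Cd163* were not compared in either NBH comparison. At their own signals, *Msr1* was at −3.57 in NBH 1 week and −4.09 in control P14, and *Arg1* at −3.34 and −3.69.

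At 4 weeks after neonatal hemisuction, again 0 of 6 compared genes were called, where 0.214% of 15873 genes were called higher and 0.75% lower. The 6 values lay between 0.05 (*Mrc1*) and 0.18 (*Lyve1*), and the dyes differed in sign for *Mrc1*, *Ms4a7*, *Lyz2* and *Lyz1*. The median was 0.13, against 0.04 over all genes. In the 1 week comparison the median was 0.17 (0.06 over all genes), and in ABH 4 weeks it was 0.14 (0.07 over all genes).

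Side by side at 1 week, the log2 fold change was 0.17 after neonatal and 3.52 after adult surgery for *Ms4a7*, 0.19 and 2.45 for *F13a1*, −0.14 and 5.24 for *Lyz2*, and 0.76 and 5.45 for *Lyz1*. The mice differ in age at surgery and at sampling and in the size of the aspirated area, and the difference between both surgeries has no replicate and was not tested. At 4 weeks the values were 0.06 and 0.18, 0.13 and 0.03, 0.17 and 0.26, and 0.14 and 0.82.

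Other genes of border macrophages were described with a list of 15 genes. In ABH 1 week, 4.44% of all genes compared were called higher and 6.37% lower. Of 13 genes of this list compared there, 8 were called higher and 0 lower, with a median of 0.91. They were *Folr2*, a folate receptor (2.66 ± 0.41), the scavenger receptor *Stab1* (2.15 ± 0.06), the platelet factor gene *Pf4* (2.12 ± 0.0008), *Ms4a6c*, a relative of *Ms4a7* (1.71 ± 0.13), the carbonyl reductase *Cbr2* (1.18 ± 0.04), the endocytic adaptor *Dab2* (1.17 ± 0.01), the sialic acid receptor *Siglec1* (0.91 ± 0.08) and the lectin *Clec4n* (0.86 ± 0.05). The other 5 compared, namely *Clec10a*, *Mgl2*, *Cd209f*, *Cd209a* and *Cd38*, lay between −0.09 and 0.57. In NBH at 1 and 4 weeks and in ABH at 4 weeks 0 of 11, 0 of 12 and 0 of 13 were called, with medians of −0.04, 0.06 and 0.15.

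Of 15 genes of recruited monocytes, 13 were compared in ABH 1 week, with 5 called higher, 1 lower and a median of 0.44. Without *F10*, whose probe was saturated, the median of the remaining 12 genes was 0.52. The 5 called higher were the calcium binding proteins *S100a4* (2.17 ± 0.02) and *S100a6* (1.15 ± 0.03), the chemokine *Ccl9* (1.52 ± 0.03), fibronectin, *Fn1* (1.42 ± 0.10), and the chitinase-like *Chil3* (1.05 ± 0.10). *Itgal*, an integrin of leukocytes, was called lower (−0.52 ± 0.12). *Ccr2*, the chemokine receptor that defines inflammatory monocytes, gave −0.68 with Cy3 and 0.81 with Cy5 and was not called. *Cd44* was called in NBH 4 weeks (0.62 ± 0.04) and *S100a4* in ABH 4 weeks (0.82 ± 0.08).

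Of 18 genes of macrophage activation and scavenging, 12 were compared in ABH 1 week, with 3 called higher, 0 lower and a median of 0.17. Without *Fabp5*, whose probe was saturated, the median of the remaining 11 genes was 0.07. The scavenger receptor *Cd36* was at least 4.81-fold higher (log2 bound 2.27 ± 0.01), the chemokine *Ccl8* was 2.12 ± 0.47 and the matrix protein *Tgfbi* 1.90 ± 0.01. *Nos2* (−0.20 ± 0.11) and *Marco* (−0.27 ± 0.26) were not called. In each of the other 3 comparisons 0 genes of this list were called.

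Markers of other cell types moved in the same ABH 1 week pool, and their part in the changes of the macrophage genes was not tested. Over all genes in this comparison, 4.44% were called higher and 6.37% lower. Microglia markers were called higher in 6 of 11 (median 0.84), among them *Fcrls* (1.57 ± 0.01) and *Aif1* (1.40 ± 0.05), whereas *P2ry12* (0.49 ± 0.0022) and *Tmem119* (0.39 ± 0.25) were not called. The summed level of the 10 unsaturated microglia markers, on the linear scale, was 93.3 to 95.4 in ABH 1 week and 56.7 to 58.6 in the 10 weeks control. Meningeal fibroblast markers were called higher in 6 of 11 (median 0.88), and their summed level was 65.0 to 65.6 against 12.7 to 12.9. The called ones were *Col1a1* (4.59 ± 0.24), *Col3a1* (4.43 ± 0.06), *Col1a2*, *Lum*, *Dcn* and *Ogn*. Not called were *Slc22a6* (−0.05 ± 0.03), *Slc6a13* (0.08 ± 0.13), *Slc13a4* (0.17 ± 0.11), *Igf2* (0.21 ± 0.06) and *Aldh1a2* (0.40 ± 0.03). Red blood cell markers were called higher in 3 of 6, among them *Hbb-bs* (1.95 ± 0.20) and *Alas2* (2.08 ± 0.04). Their summed level without saturated probes was 12.98 to 13.004 against 3.24 to 3.76. Neutrophil markers were called higher in 3 of 9 and lower in 0, with a summed level, without the saturated *Csf3r*, of 5.36 to 5.51 against 3.70 to 4.19. Those called were *S100a8* (2.23 ± 0.09), *S100a9* (2.10 ± 0.04) and *Lcn2* (0.77 ± 0.17). Not called were *Mpo* (−0.0034 ± 0.07), *Camp* (−0.10 ± 0.01), *Elane* (−0.20 ± 0.08), *Csf3r* (−0.09 ± 0.10), *Ltf* (bound 0.16) and *Retnlg* (bound 0.62). Lymphatic endothelium markers were called higher in 1 of 3 and lower in 0. T and B cell markers (of which *Cd3d*, *Cd3g* and *Ms4a1* were measured in neither pool) were called higher in 1 and lower in 3 of 6. Choroid plexus markers were called higher in 0 and lower in 1 of 7, and neocortical neuron markers in 0 and 0 of 8.

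In the other 3 comparisons, where *Lyz1* in ABH 4 weeks was the only macrophage gene called, none of the microglia, meningeal fibroblast or lymphatic endothelium markers was called. Choroid plexus markers were called higher in 6 of 9 in NBH 1 week, 4 of 9 in NBH 4 weeks and 7 of 9 in ABH 4 weeks. Red blood cell markers were called higher in 3 of 6 in NBH 4 weeks and lower in 1 of 6 in ABH 4 weeks. Over all genes compared, 0.472% were called higher in NBH 1 week, 0.214% in NBH 4 weeks and 0.43% in ABH 4 weeks. The share called lower in ABH 4 weeks was 0.196%.

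**Figure D3:**
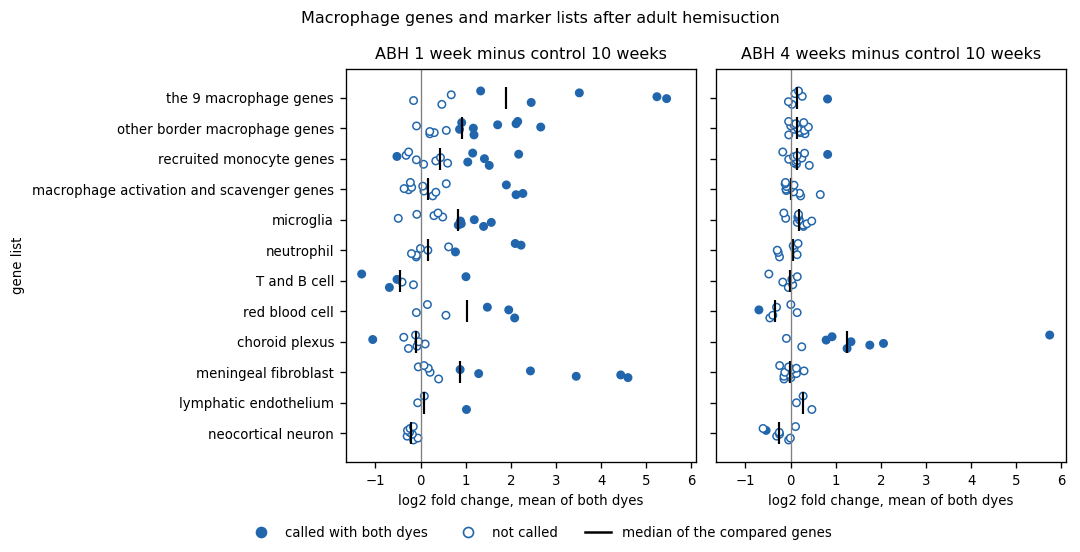
Log2 fold change, as the mean of both dyes, of the compared genes of each list (rows) in ABH 1 week and ABH 4 weeks against the shared 10 weeks control, with 1 point per gene, filled where called with both dyes, and a line at the median. The medians of the 8 compared macrophage genes (1.89), other border macrophage genes (0.91), microglia (0.84) and meningeal fibroblasts (0.88) lie above 0 at 1 week, and at 4 weeks these 4 medians lie between −0.01 and 0.18.

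The pattern over the 8 pools was compared with that of 3612 genes that were measured in at least 4 pools and ranged over at least 1 on the log2 scale. The 3 genes most like *Mrc1* were *Cdca8* (Pearson r = 0.998), *Mcm6* (r = 0.997) and *Cks1b* (r = 0.994), with Spearman rho of 0.976, 0.952 and 1.0, and without control P7 and ABH 1 week, the pools farthest from the median, r was 0.995, 0.996 and 0.983. Those most like *Lyve1* were *C130026L21Rik*, *Srl* and *Rnd1* (r = 0.99 for each), with rho of 0.905, 0.976 and 0.976, and r was 0.98 to 0.99 without the 2 farthest pools. The 8 points of each r are pools that share no animals, but all genes were measured on the same arrays. The named genes were picked for the highest r over these same pools. A high r, also without the 2 farthest pools, therefore follows in part from the choice. *Lyve1* itself ranged over 0.77, less than the limit set for the genes it was compared with.

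For the genes that were high in ABH 1 week, r was lower without that pool and the other pool farthest from the median, and ABH 1 week was not left out alone. *Ms4a7* was most like *Ifi204*, *Atf3* and *F13a1* (r = 0.997, 0.997 and 0.996), with Spearman rho of 0.905, 0.976 and 0.905, and r was 0.86, 0.77 and 0.90 without ABH 1 week and control P7. *F13a1* was most like *Ms4a7* (0.996), *Ifi204* (0.995) and *Lgals1* (0.994), with rho of 0.905, 0.714 and 0.762, and r was 0.80, 0.36 and 0.67 without ABH 1 week and NBH 1 week. *Lyz2* was most like *Tgfbi*, *Tcirg1* and *Cd5l* (0.99 for each), with rho of 0.238, 0.405 and −0.071. Without both ABH pools r was −0.55, 0.08 and −0.71, so that the other 6 pools did not show this likeness. Of the pools left out, ABH 1 week stood 4.98 ± 0.06 above the next pool for *Lyz2*. ABH 4 weeks lay 0.17 ± 0.52 above control P7, within the dye spread. *Lyz1* was most like *Renbp*, *Cd52* and *Spp1* (0.99 for each), with rho of 0.952, 0.833 and 0.429, and r was 0.64, 0.68 and 0.86 without both ABH pools.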

How the data were processed

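RNA of 8 mouse neocortex pools was hybridized to 16 arrays of the Agilent 8 × 60 K mouse format. The authors read the scans with Agilent Feature Extraction 11.0.1.1, whose headers name build mm9, and deposited intensities in arbitrary units, namely the median signal, the local background and a processed, background-subtracted signal for each channel. A value table of the series, deposited as well, holds the processed signal intensity of the labeled channel, unscaled.

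The median signal of the labeled channel was corrected by normexp (offset 50) in limma 3.58.1 under R 4.3.3, log2 transformed and set against the 75th percentile of the gene spots of its array. Outlier spots and control spots were dropped, and spots of a probe averaged (Python 3.11.15, numpy 2.4.6, pandas 2.3.3). The offset compresses folds of dim probes. A probe was named through its RefSeq accession (GRCm38.p6 table, names only), and 26582 of 55681 probes were named. The macrophage genes and all lists were chosen with earlier results of these data known. Of the listed genes, *Ly6c2*, *Clec7a*, *Cd68*, *Ly6g*, *Hbb-b1* and *Ccl21a* were not matched. Named are the 9 genes, called genes of the 3 macrophage lists and, for each of the 9 genes above background in at least 4 pools, the 3 genes with the highest r. Other genes were named after their values were seen. The limits of 1.5-fold and 0.75-fold are those that the study names for its RT-PCR images, and its p-value limit for arrays was not used. The calls were also run on simulated levels, with planted changes beyond the limits and noise sized from the dye spread. Such a run cannot judge variation between animals. The 14 alternatives tried are other signals, scalings, filters, limits, control pools and probes, and each dye alone. The 16 arrays limit the precision.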

Additional observations from a re-analysis of the deposited data

Results flagged for a closer look

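Among the macrophage genes measured in both surgeries or at both times, *Lyve1* at 4 weeks had both arrays above the control after neonatal surgery (by 0.27 on the Cy3 and 0.09 on the Cy5 array, log2 scale) and both below it after adult surgery (−0.04 and −0.06). The neonatal value was higher by 0.23. The signs turned with the processing, the neonatal value to −0.03 with the unscaled value table and the adult value to 0.0044 with another control pool. Neither value was called, each is 1 pool against 1 pool, and the difference was not tested.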

How the results depend on the processing

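The count of macrophage genes called higher in ABH 1 week was 4 to 7 over the alternatives (5 to 7 with 1 dye alone), and *Lyz1*, *Lyz2*, *Ms4a7* and *F13a1* were called in all of the alternatives that count genes. *Arg1* and *Mrc1* stayed uncalled in ABH 1 week in 4 of 12 and 8 of 13 alternatives, and were called higher in the others. In ABH 4 weeks the count of 1 fell to 0 with median scaling, with the unscaled value table and with 2-fold limits, and was 1 with either dye alone. In NBH 1 week the count called higher of 0 became 1 (*Lyz1*) with the processed signal and was 0 with Cy3 alone and 1 with Cy5 alone, and the count called lower was 0 with Cy3 alone and 1 with Cy5 alone (*Lyz2*). In NBH 4 weeks 0 genes were called under every alternative, as were 0 genes called lower in both ABH comparisons. The cause of these changes was not tested. Median scaling moved the median of all genes in ABH 1 week from −0.08 to 0.18. Calls over all genes in this comparison were 725 higher and 1039 lower, and 963 and 385 with quantile normalization. In NBH at 1 and 4 weeks and in ABH at 4 weeks they were 73 and 66, 34 and 119, and 70 and 32, against 58 and 133, 20 and 170, and 57 and 48 with median scaling and 102 and 486, 39 and 1266, and 52 and 496 with the unscaled value table. No called change of a macrophage gene reversed its sign. *Lyz1* and *Lyz2* lay between 5.17 and 6.10 and *Ms4a7* between 3.42 and 4.07 in ABH 1 week, while *F13a1* lay between 0.97 (mean of both probes) and 2.77 and *Msr1* between 0.55 (second probe) and 2.77. Signal over background limits *Msr1*, *Arg1* and *Cd163*, for which a change in most pools was not detectable. No paired analysis was possible because each group is 1 pool.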
